A study of Dunaliella salina with 12 samples.

Results

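The genes described here are 67 assembled transcripts of the green alga Dunaliella salina that stood higher after added NaCl and after sorbitol by about the same amount, and near their control level after H2O2. They were picked out of 82333 assembled genes by measured values. With N, S and H as the mean of log2(FPKM + 1) in NaCl, sorbitol and H2O2 libraries minus the control mean, a member had N and S of at least 0.8, a difference N - S within 0.4 and an H within 0.4. FPKM is the number of fragments scaled by transcript length and by all fragments mapped, so levels of different genes can be set side by side. A member also had a mean of at least 10 FPKM with NaCl and below 1000 FPKM in control, and each of its NaCl and sorbitol libraries lay above all 3 control libraries. Every contrast with control, and that of NaCl with sorbitol, was therefore used to choose the members, and their values in these contrasts are a description.

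All 12 libraries came from whole cells of strain 435, labelled as 5 days old, in 4 groups of 3. Cells of every group, the control included, were spun down and put for 2 h into fresh medium with 1.5 M NaCl. The control got nothing more, the NaCl group a further 1.5 M NaCl, the sorbitol group 1.5 M sorbitol and the H2O2 group 0.4 mM H2O2. No label calls the 3 libraries of a group separate cultures, so their spread may be technical, and no group is free of the transfer itself or of the salt of the medium.

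Dunaliella has no rigid cell wall, so its cells shrink when the outside becomes more concentrated and regain volume by making glycerol, a small compatible solute whose carbon comes from photosynthesis and from stored starch. Sorbitol is an uncharged sugar alcohol that raises the outside osmotic strength without adding ions. NaCl does both, and gives more dissolved particles per mole. H2O2 is an oxidant that adds almost nothing to osmotic strength at such a dose. Sorbitol thus gives an osmotic step without ions, and H2O2 an oxidative step with little osmotic change. NaCl and sorbitol were added at the same molar dose, so their osmotic steps were not matched. A near-equal N and S is therefore not an equal response to an equal osmotic step. How near to alike the members were with NaCl and sorbitol is the main question below.

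The members carry IDs of an assembly and no names. None of the IDs (0 matched) is in the reference table of 16683 genes, so roles in glycerol or starch metabolism, or in any other pathway, are not given here, and no sequence is printed. IDs are printed for 8 members, chosen by the rules given with each, and other members are named by rank.

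The members were moderately expressed genes whose level with NaCl or sorbitol was mostly a little above or below 2 times that in control. Group means ran from 2.33 to 234 FPKM in control, with a median of 17.4, from 10.5 to 484 (median 35.4) with NaCl, from 8.52 to 449.6 (median 31.5) with sorbitol and from 2.13 to 271 (median 20.5) with H2O2. The ratio of the NaCl mean to the control mean had a median of 2.33 and ran from 1.77 to 5.46. For sorbitol the ratio had a median of 1.96 and ran from 1.78 to 4.61. On the log2(FPKM + 1) scale the median N was 1.17 (0.80 to 2.47), the median S 0.95 (0.80 to 2.25) and the median H 0.19 (-0.38 to 0.38). Over the 27038 genes tested, those that reached 1 FPKM in 3 or more libraries, the medians were 0.03, 0.07 and 0.07.

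Most members sat close above the lower limit of the rule. N was below 1 in 16 members, between 1 and 1.5 in 43 and at least 1.5 in 8. S was below 1 in 40, between 1 and 1.5 in 22 and at least 1.5 in 5. Just inside and outside the limits, the lowest N of a member was 0.802 and the highest N of a gene kept out by it alone was 0.759, and for S the values were 0.801 and 0.796. The largest difference N - S in size was 0.398 inside and the smallest 0.421 outside, and the largest size of H was 0.380 inside and the smallest 0.404 outside. The lowest NaCl mean was 10.5 FPKM inside and the highest 9.78 outside. Of the genes kept out by a single condition, S below 0.8 accounted for 208, N - S for 165, the NaCl level for 55, H for 20, N for 10 and the order of libraries for 4.

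Together the members held a small share of the transcript pool, and the libraries of a group had much the same share. In control libraries 1, 2 and 3 they summed to 2646, 2681 and 2703 FPKM. With NaCl the sums were 6183, 6329 and 6203 FPKM, and with sorbitol 5333, 5453 and 5725 FPKM. The H2O2 libraries, at 2805, 3125 and 2934 FPKM, lay above the highest control sum and far below the lowest sorbitol sum. As a share of each library's summed FPKM NaCl libraries held 0.579% ± 0.013, sorbitol libraries 0.515% ± 0.020, H2O2 libraries 0.269% ± 0.013 and controls 0.238% ± 0.004 (SD, n = 3). All NaCl shares (0.571% to 0.593%) were above all sorbitol shares (0.50% to 0.537%). The rule used the values behind these sums, and it set a floor on the NaCl level and none on the sorbitol level. The sums and shares, those with H2O2 included, are thus a description.

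**Figure D1:**
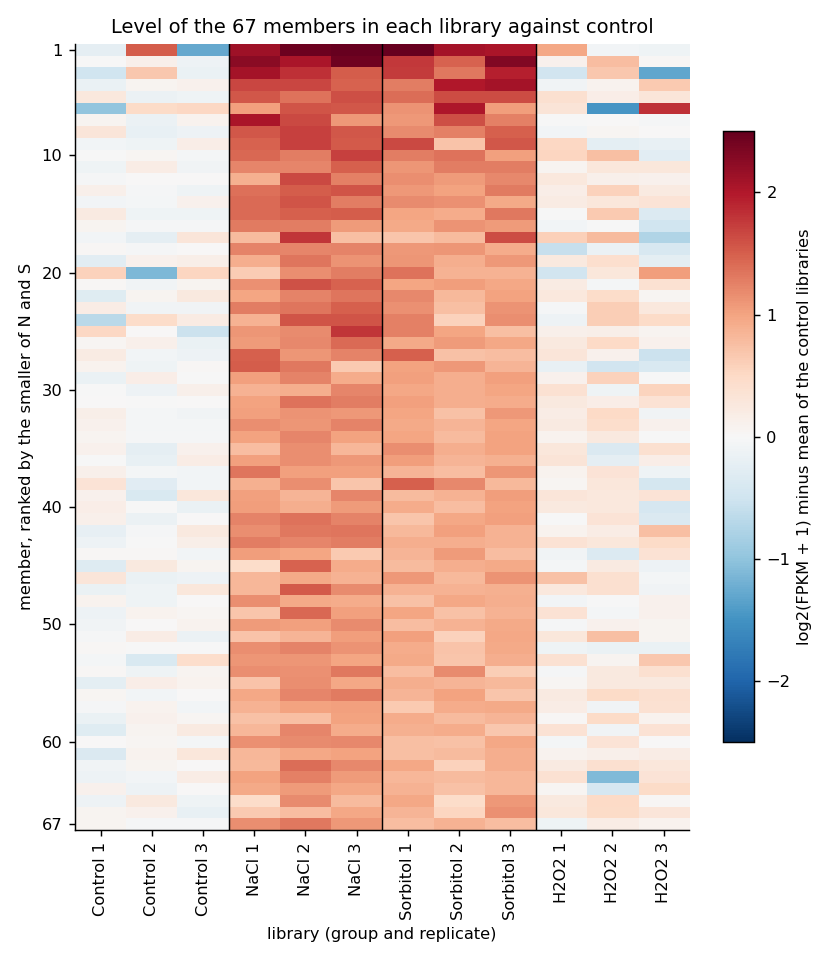
Each row is 1 of the 67 members, ranked by the smaller of N and S, and each column is a library. Colour gives log2(FPKM + 1) minus the mean of the 3 control libraries, red above and blue below. The 6 NaCl and sorbitol columns are red in every row, by the rule, with the deepest red in the top rows, while the H2O2 columns are mostly pale, with deeper colour in single libraries of a few rows.

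The 2 members with the largest smaller value of N and S, among those with a control mean of at least 1 FPKM, were c30948_g3 and c21268_g1. The gene c21268_g1 was at 33.4, 37.0 and 30.7 FPKM in control, 165, 142 and 185 with NaCl, 117, 95.2 and 171 with sorbitol, and 36.5, 58.0 and 34.5 with H2O2. Its lowest sorbitol library was 2.57 times its highest control library, the widest such gap among the members, and its N was 2.24 ± 0.22 and its S 1.85 ± 0.22 (SE, limma). Sorbitol replicate 3 fell inside the range of the NaCl libraries and the other sorbitol libraries below it. The gene c30948_g3 was a low gene, at 1.09, 5.91 and 0 FPKM in control, 9.62, 12.4 and 16.2 with NaCl, 13.9, 9.27 and 9.05 with sorbitol, and 3.79, 1.33 and 1.26 with H2O2. Its control libraries were uneven, 1 of them listed at 0, so its N of 2.47 and S of 2.25 each had an SE of 0.55. It was the one member with a control library at 0.

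Other members with a large change differed in how evenly the libraries behaved. The member of rank 3 by the smaller value of N and S had 15.8, 36.7 and 20.1 FPKM in control against 98.9, 83.0 and 66.4 with NaCl and 78.5, 58.2 and 90.9 with sorbitol. The member of rank 4 was at 63.0, 74.7 and 76.8 FPKM in control, 229, 228 and 200 with NaCl, and 175, 288 and 304 with sorbitol. Of the 4 members with the largest change it was the one with S above N (1.79 against 1.60), though sorbitol replicate 1 was below all its NaCl libraries. The member of rank 5 was even in all groups, at 23.2, 17.1 and 17.6 FPKM in control, 58.0, 50.4 and 60.2 with NaCl, 52.2, 61.0 and 61.3 with sorbitol, and 25.4, 21.4 and 23.7 with H2O2. NaCl and sorbitol libraries of this gene overlapped, and its H2O2 libraries overlapped control.

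The 2 members with the highest NaCl mean were c27095_g1 and c27277_g1. For c27277_g1 the control libraries were at 178, 219 and 181 FPKM, the NaCl libraries at 448, 447 and 543, the sorbitol libraries at 416, 466 and 467, and the H2O2 libraries at 201, 234 and 233. NaCl and sorbitol overlapped, and the difference between them was 0.09 on the log2 scale (95% interval -0.14 to 0.31). For c27095_g1 the control libraries were at 172, 195 and 237 FPKM, the NaCl libraries at 446, 501 and 504, the sorbitol libraries at 350, 406 and 364, and the H2O2 libraries at 212, 227 and 336. Here all NaCl libraries were above all sorbitol libraries, with a difference of 0.37 (95% interval 0.03 to 0.72), and H2O2 replicate 3 came near the lowest sorbitol library.

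Below these, the members of ranks 3, 4 and 5 by NaCl mean ranged from 387 to 500.5 FPKM over their NaCl libraries, from 338 to 446 with sorbitol, and from 187 to 253 in control. The member of rank 5 had the smallest rise of the 3, N 0.82 and S 0.86, with 207, 253 and 242 FPKM in control, 387, 393 and 467 with NaCl, and 446, 406 and 420 with sorbitol. Its NaCl and sorbitol libraries interleaved. Of the 67 members, 7 had a control mean of 100 FPKM or more, 16 one of 30 to 100, 25 one of 10 to 30 and 19 one below 10. Over these bands, from low to high, the median N was 1.24, 1.07, 1.17 and 1.17 and the median S 1.01, 0.89, 0.92 and 0.91. The limits on N and S, and on the NaCl level for the low genes, bear on these medians, so no relation to level is read from them. The largest changes among members at 100 FPKM or more were 1.31 for N and 1.22 for S.

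**Figure D2:**
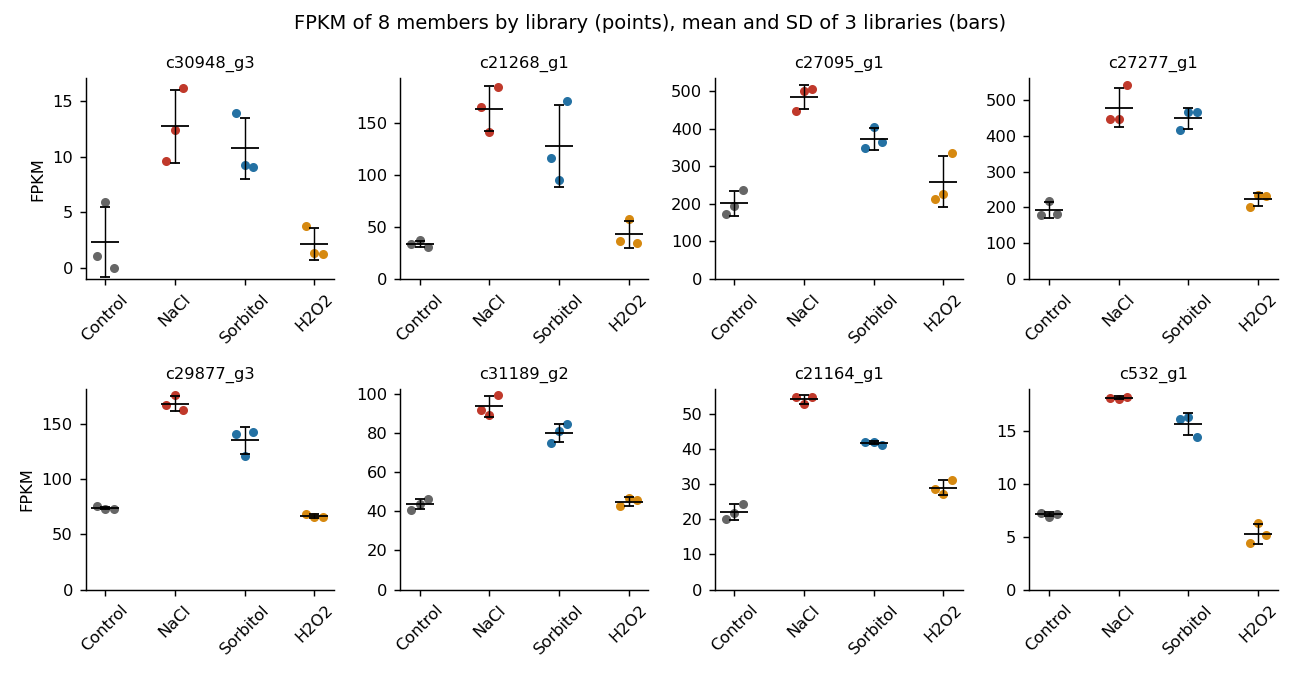
FPKM of 8 members in each library (points), with the mean and SD of the 3 libraries of a group (bars). Axes are linear and differ between panels. In c27277_g1 the NaCl and sorbitol points overlap, and in c27095_g1 and c21164_g1 all NaCl points lie above all sorbitol points.

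The gap between the groups differed among members. The lowest NaCl or sorbitol library of a member was between 1.05 and 2.57 times its highest control library, with a median of 1.57, and in 48 members this ratio was at least 1.5. Such an order of libraries, which the rule required, was met by 13.8% of the genes tested and by 28.4% of the 10159 tested genes within the members' limits on control and NaCl level. Against the control mean, the median over members was 1.04, 1.23 and 1.19 in NaCl libraries 1, 2 and 3, and 0.99, 0.90 and 0.98 in the sorbitol libraries. NaCl replicate 1 was the lowest of its group in 38 of 67 members and sorbitol replicate 2 in 35. A like shift was seen beyond the members: over those 10159 genes, NaCl replicate 1 had a median 0.05 below its group mean and sorbitol replicate 2 one 0.03 below. The members' median SD within a group was largest with H2O2, at 0.23 log2, and 0.15 in control, 0.16 with NaCl and 0.13 with sorbitol. Over the 10159 genes it was 0.17 for H2O2 and 0.11, 0.13 and 0.12 for the other groups in the same order.

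In one limma model of all 12 libraries, with p-values adjusted over all genes tested, 64 of the 67 members were called higher with NaCl than in control, where 18.4% of all genes tested and 38.2% of those 10159 genes were. With sorbitol 62 were called higher, against 6.7% and 14.8%, and the same 62 were called with both, against 5.64% and 13.3%. The rule used these contrasts, so nothing follows from the counts. The 3 members not called with NaCl were also not called with sorbitol, and they had uneven libraries. One of them, of rank 20 by the smaller value of N and S, was at 23.1, 6.44 and 22.5 FPKM in control, 24.2, 34.95 and 38.1 with NaCl and 40.3, 28.4 and 28.5 with sorbitol. Its NaCl replicate 1 was just above the highest control library.

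How equal the NaCl and sorbitol levels were is the point on which the label of these genes rests, and the values leaned to NaCl. The difference N - S was above 0 in 57 of the 67 members and below 0 in 10, with a median of 0.19 and a range from -0.26 to 0.40. Its quartiles were 0.09 and 0.30. Over all genes tested, 47.5% had N above S. Of the 10159 tested genes within the same limits on level, 58.6% did, and 56.5% of those with a difference within 0.4. These shares carry no limit on N or S. The limits of the rule on N, S and N - S bear on the members' balance, so it is a description. So does its floor on level, which was set for NaCl and not for sorbitol. The number of members with N above S was 55 with libraries scaled to equal sums and 59 with median-ratio scaling. A difference under 0.1 in size was found in 17 members and one under 0.2 in 34, while 18 members had NaCl higher by 0.3 or more.

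The members were one end of a continuous range, with no gap at the limit of 0.4. With the conditions on level, on the order of libraries and on N and S kept, and those on N - S and H dropped, 309 genes remained. Of these, N - S was below -0.4 in 2, between -0.4 and -0.2 in 2, between -0.2 and 0 in 9, between 0 and 0.2 in 34, between 0.2 and 0.4 in 42, between 0.4 and 0.6 in 38, between 0.6 and 0.8 in 49, between 0.8 and 1.2 in 61 and 1.2 or more in 72. The last 2 of these bands are wider than those before them, and few genes lay on the sorbitol side.  The floor on level was set for NaCl and not for sorbitol, so genes high with sorbitol but below the floor with NaCl could not enter. With H within 0.4, the genes with NaCl further from control by 0.4 or more numbered 164, and 1 gene had sorbitol further by as much. The same floor bears on these counts, so nothing is read from their imbalance.

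**Figure D3:**
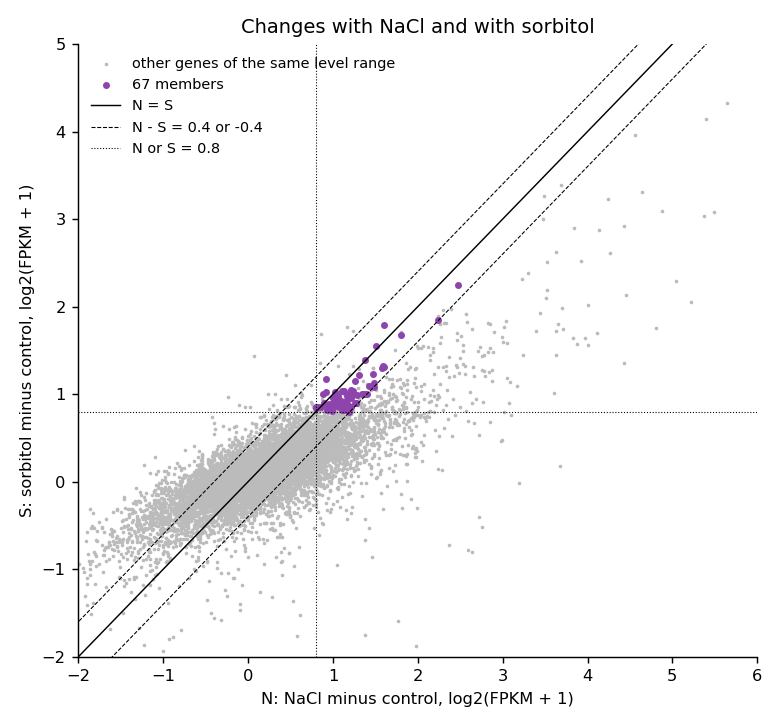
N (NaCl minus control) against S (sorbitol minus control), both in log2(FPKM + 1), for the 10159 tested genes within the members' limits on level. Of these, 37 lie outside the axes. The 67 members (purple) fill the corner between the dotted limits at 0.8 and the dashed line at N - S = 0.4, mostly below the line of equality, and the other genes run on to larger N without a break.

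The 164 genes with NaCl further from control, chosen by the same conditions otherwise, give a scale for this corner. Their median S was 1.10 against 0.95 in the members, and their median N 2.16 against 1.17. The largest S was 4.33 among them and 2.25 among the members, and S reached 1 in 96 of the 164 and in 27 of the 67. Their median level was 12.3 FPKM in control, 65.7 with NaCl and 32.3 with sorbitol, against 17.4, 35.4 and 31.5 in the members. So the median sorbitol levels of the groups were close, and the NaCl levels, by which they were split, were not. These differences were not tested, since N and S chose both groups.

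The 95% interval of N - S from limma describes how closely the difference was measured in each member, and for most it reached past the limit of 0.4. Its full width had a median of 0.69 log2 and ran from 0.32 to 2.88. The interval held 0 in 53 members and lay wholly above 0 in 14 and wholly below in 0. It stayed within 0.4 on both sides in 12 members, reached 0.4 or more on the NaCl side in 51 and -0.4 or less on the sorbitol side in 10. Within 0.8 on both sides it stayed in 55. So a difference larger than the rule allows is within the interval for most members, and a p that misses the threshold does not make the levels alike. Members were chosen for a small difference in these same libraries, so the intervals may not cover the difference at their stated 95%.

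Between NaCl and sorbitol 5 members were called by limma at an adjusted p of 0.05, all higher with NaCl, where 20.7% of all genes tested were called and 8.8% were higher with NaCl. Within the limits on level these shares were 33.1% and 18.7%. The rule kept the difference small, so the low count says nothing. It was 2 without NaCl replicate 2, 2 without sorbitol replicate 1, 9 without H2O2 replicate 2 and 8 without H2O2 replicate 3. All NaCl libraries were above all sorbitol libraries in 19 members, where 16.7% of genes tested and 31.9% of those within the limits on level had this order. The reverse order was found in 0 members, where 19.0% and 21.1% had it. The limit on N - S bears on both counts, and nothing is read from them. In the other 48 members the groups overlapped.

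The 2 members with the narrowest interval were c29877_g3 and c31189_g2. The gene c29877_g3 was at 75.2, 72.9 and 73.1 FPKM in control, 167, 176 and 163 with NaCl, 141, 121 and 143 with sorbitol, and 68.8, 65.6 and 65.9 with H2O2. All its groups were tight and the NaCl libraries stood clear of the sorbitol ones, with a difference of 0.32 (0.16 to 0.48), and it was among the 5 called. The gene c31189_g2 was at 40.9, 43.6 and 46.3 FPKM in control, 91.9, 89.3 and 99.4 with NaCl, 75.05, 80.8 and 84.4 with sorbitol, and 42.5, 46.9 and 45.5 with H2O2. Again NaCl and sorbitol did not overlap, with a difference of 0.22 (0.05 to 0.40).

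At the other end, the member with the lowest N - S had 22.2, 26.9 and 19.2 FPKM with NaCl and 34.3, 27.7 and 21.0 with sorbitol, against 14.9, 9.29 and 11.0 in control. Its difference of -0.26 had an interval from -0.75 to 0.24, and its groups overlapped. No member had an interval wholly on the sorbitol side.

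**Figure D4:**
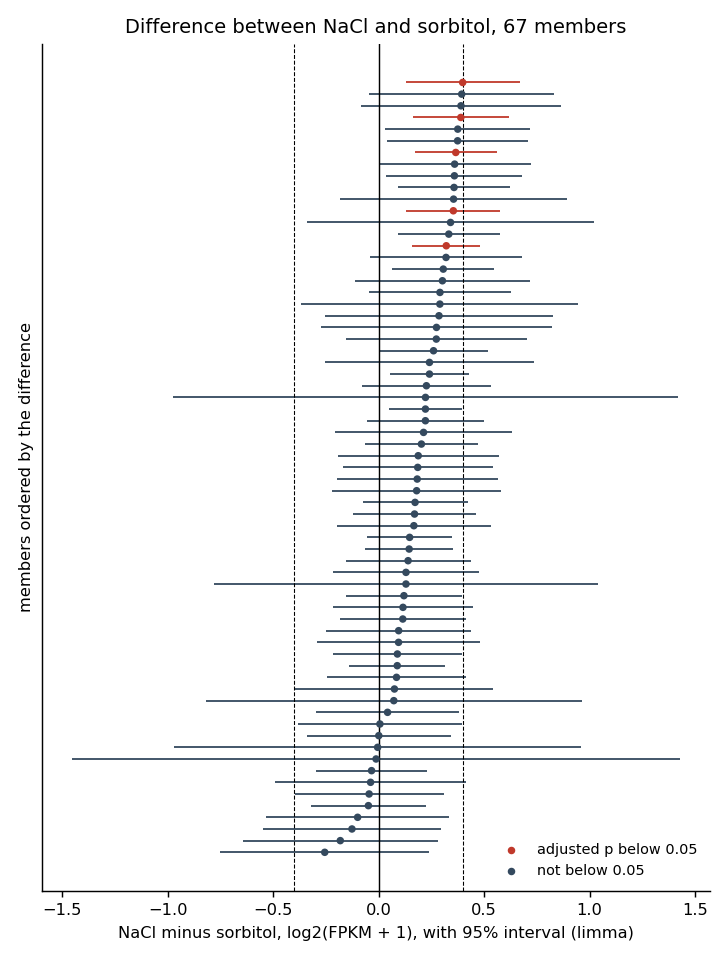
Difference between NaCl and sorbitol in log2(FPKM + 1) for the 67 members, ordered by the difference, with the 95% interval from limma. Dashed lines mark the limits of 0.4 used to choose the members, and the 5 members with an adjusted p below 0.05 are red. Of the intervals, 53 cross 0, 14 lie to the right of it and 51 reach 0.4 or more.

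Under H2O2 the members stayed near control, as chosen, with more of them above than below. H was above 0 in 55 of 67 members (82.1%), against 71.3% of the 10159 genes within the same limits on level and 60.7% of all genes tested. This number was 45 with median-ratio scaling and 59 with equal sums, so part of the balance moved with the scaling of libraries. The median H of all genes tested moved too, from 0.07 to -0.01 with median-ratio scaling and to 0.096 with equal sums. Shares of other genes with H above 0 were not counted after scaling, so 45 and 59 have no comparison. The limits on N and S, which share the control libraries with H, bear on this balance, so it is a description. By limma 0 members were called between H2O2 and control, where 0.111% of all genes tested and 0.128% of those within the limits on level were, and 9 of 67 members had an unadjusted p below 0.05, against 12.0% of all genes tested. All H2O2 libraries were above all controls in 9 members (12.0% of genes tested, 17.0% of those within the limits on level) and below all controls in 3 (5.0% and 3.67%), and the groups overlapped in 55. The 95% interval of H held 0 in 58 members, lay above it in 8 and below it in 1, and it reached 0.4 or more in 52. A rise with H2O2 of the size that kept other genes out is thus within the interval for most members. H was limited in these same libraries, so these intervals too may not have their stated coverage.

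The highest and lowest H were those of c21164_g1 and c532_g1. The gene c21164_g1 was at 19.99, 21.8 and 24.5 FPKM in control, 28.6, 27.1 and 31.3 with H2O2, 42.2, 42.0 and 41.2 with sorbitol and 54.8, 52.8 and 54.9 with NaCl. Its 4 groups did not overlap and stood in the order control, H2O2, sorbitol and NaCl, with an H of 0.38 (0.19 to 0.57). The gene c532_g1 was at 7.28, 6.91 and 7.16 FPKM in control, 4.42, 6.29 and 5.18 with H2O2, 16.2, 16.4 and 14.5 with sorbitol and 18.2, 18.03 and 18.3 with NaCl. Its H2O2 libraries were all below control, with an H of -0.38 (-0.64 to -0.11). Every NaCl and sorbitol library was above every H2O2 library in 61 of the 67 members, where 7.18% of all genes tested and 14.0% of those within the limits on level had this order. The rule used the values behind this order too.

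The IDs have a component part, shared by genes that the assembly placed together, and a gene part. The members came from 66 components, and 45 of them were alone in theirs. The other 22 (32.8%) had at least one further gene in their component, against 41.5% of the 10159 genes of the same level range. Genes of one component may share reads, so their levels may not be separate measurements. A single component, of 18 genes, held 2 members. One of them was at 41.5 to 52.5 FPKM in control, 87.9 to 98.2 with NaCl and 80.7 to 94.3 with sorbitol. The other was at 35.8 to 41.1 FPKM in control, 74.6 to 87.3 with NaCl and 64.6 to 76.4 with sorbitol. Their changes were close to each other, with N of 1.00 and 1.01 and S of 0.90 and 0.87.

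The other genes of these components were read without any limit on their values. They numbered 81, of which 45 had enough signal to be tested, with medians of 0.17 for N, 0.11 for S and 0.04 for H. With NaCl 14 of the 45 were called higher and 7 lower, where 18.4% and 17.4% of all genes tested were. With sorbitol 4 were higher and 4 lower, where 6.7% and 6.47% were. The component of c30948_g3 held the largest change. Another gene of it went from 4.56 ± 0.15 FPKM in control to 249 ± 9.62 with NaCl and 46.6 ± 7.84 with sorbitol (SD, n = 3), with an N of 5.49 and an S of 3.09, far from equal. Whether c30948_g3 shares reads with that gene was not tested.

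Since every library entered the choice, the rule was also run with 1 replicate number left out of all 4 groups, and the genes so chosen were read in the 4 left-out libraries alone. This gave 66, 92 and 80 genes without replicates 1, 2 and 3, of which 41, 40 and 42 were among the 67 members. Being chosen depended on single libraries: 16 members were chosen in all 3 runs, 28 in 2, 19 in 1 and 4 in none. Each run compares 1 library per group, so it has no replicate error and no test.

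The higher level with both treatments was seen again in the left-out libraries, at a somewhat smaller size for sorbitol. The NaCl library was above the control library in 62 of 66, 91 of 92 and 79 of 80 genes, and the sorbitol library in 63, 86 and 77. Shares of all genes of that level with this order were not counted, and the medians below give the comparison. Libraries of a group may be technical repeats, so a left-out library need not stand for a separate culture. The median N in the left-out libraries was 1.04, 1.10 and 0.97, against 1.16, 1.10 and 1.11 in the libraries used to choose. For S it was 0.80, 0.67 and 0.71, against 0.97, 0.95 and 0.94. Tested genes within the same limits on level had medians of 0.16, 0.25 and 0.23 for N and of 0.17, 0.09 and 0.11 for S in the same left-out libraries. Both N and S reached 0.8 in 47.0%, 32.6% and 37.5% of the genes chosen, and in 5.18%, 3.92% and 5.08% of the genes of that level.

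Equality was required in the libraries used to choose, so in the left-out libraries it could only be kept or lost. Beside all genes of that level, a difference within 0.4 was more common without replicate 1 and less common without replicates 2 and 3. In the left-out libraries the median of NaCl minus sorbitol was 0.20, 0.45 and 0.32, where it had been 0.20, 0.16 and 0.19 in the libraries used to choose. All tested genes of that level had medians of -0.04, 0.15 and 0.10 in the same left-out libraries, so part of the shift without replicates 2 and 3 was shared. A difference within 0.4 was kept by 44 of 66, 38 of 92 and 44 of 80 genes (66.7%, 41.3% and 55.0%), where all genes of that level did so in 59.7%, 57.5% and 61.4%. NaCl was higher by 0.4 or more in 18, 54 and 33 genes, and sorbitol by as much in 4, 0 and 3. Shares of all genes of that level on each side were not counted, so nothing is read from this split. The contrast of NaCl with sorbitol does not involve the control libraries. Median H in the left-out libraries was 0.01, 0.28 and 0.15, where all tested genes of that level had 0.07, 0.13 and 0.08. Of the genes chosen, 50, 59 and 51 kept an H within 0.4. The share of all genes of that level within 0.4 was not counted, so nothing is read from these counts.

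**Figure D5:**
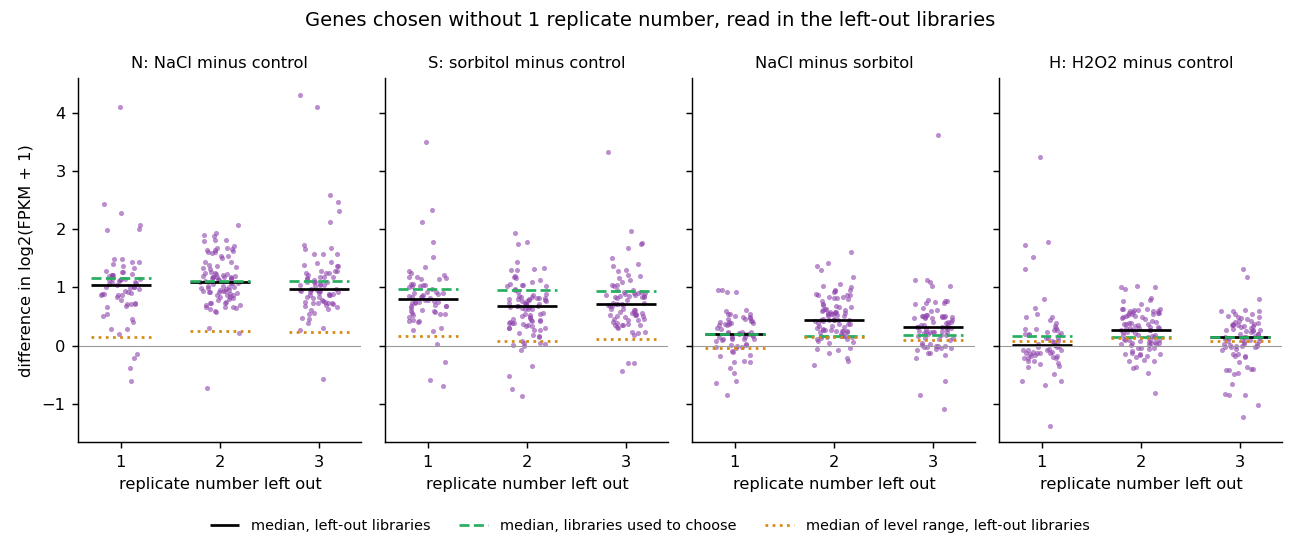
Genes chosen without replicate 1, 2 or 3 (66, 92 and 80 points) read in the left-out libraries, as differences in log2(FPKM + 1). Black lines are their medians there, green dashed lines their medians in the libraries used to choose, and orange dotted lines the medians of all tested genes of that level. N and S stay above those of other genes, S lies lower than where it was chosen, and NaCl minus sorbitol lies higher for replicates 2 and 3.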

How the data were processed

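Per the submitters' processing notes, the tools included cutadapt (an adapter trimmer) and RSEM (which estimates abundance). Their versions and the build were not given in the sources used here. Deposited values were taken to be FPKM, which no source states, from values with 2 decimals that sum to between 1065190 and 1133348 per library. They hold no absolute depth. Relative depth, estimated from the steps of single reads among low values, ran from 0.917 to 1.20 around a mean of 1. Several libraries had exactly the same estimate, so it is coarse. Libraries of a group had at most 3.64% of values exactly equal.

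The conditions were applied to all 82333 genes. For tests, the 27038 genes that reached 1 FPKM in 3 or more libraries were fitted as log2(FPKM + 1) in limma 3.58.1 (R 4.3.3, mean-variance trend, 12 libraries, no covariate), with Benjamini-Hochberg adjustment over all of them and a threshold of 0.05. Intervals are limma's 95% intervals. Software was pandas 2.3.3, numpy 2.4.6 and matplotlib 3.10.9 in Python 3.11.15. The model and the selection were tested on simulated data. Members, lists and the rule for printing IDs (the top 2 by the smaller of N and S, by NaCl mean and by narrowness of the interval, and the highest and lowest H) were chosen with earlier results of these data known. Alternatives were pseudocounts, filters, scalings, limits, a replicate block and libraries left out.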

Additional observations from a re-analysis of the deposited data

How the results depend on the processing

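The rule gave 67 genes as applied, 41 with median-ratio scaling of libraries (37 of them among the 67) and 24 with a rise of at least 1, and between 49 and 95 under the other settings. Leaving out each library gave 60 to 95 genes, most without sorbitol replicate 2, of which 52 to 60 were among the 67. Members called higher with NaCl were 64 to 66 and with sorbitol 57 to 63 as each library was left out. Calls between NaCl and sorbitol (5) became 2 with no filter, 3 without the mean-variance trend, 8 with median-ratio scaling, 1 at an adjusted p of 0.01 and 2 to 9 with each library left out. For H2O2 the count was 0 in all these fits. The cause was not tested.

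With each library left out the median N was 1.13 to 1.21, the median S 0.92 to 0.99, the median N - S 0.15 to 0.21 and the median H 0.14 to 0.20. Scaling moved the median S to 0.87 (median-ratio) and 1.02 (equal sums) and the median H to 0.087 (median-ratio), and it moved the median of all genes tested by at most 0.08 in size. In left-out libraries the median N was 0.97 to 1.10, the median S 0.67 to 0.80, the median N - S 0.20 to 0.45 and the median H 0.0051 to 0.28. Of 512 values of the 8 members with IDs, 3 lost the threshold, all of c30948_g3 with sorbitol, 1 passed it (c27095_g1 between NaCl and sorbitol) and 0 called values reversed. Absolute depth is unknown, which limits what can be said of the low members.

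Replicate numbers gave no sign of a pairing: across groups, deviations of libraries with one number correlated between -0.083 and 0.047 in 18 pairs, and 1 of 12 libraries was nearest to its own number. A fit with that number as a block called 64 members higher with NaCl, 63 with sorbitol, 4 between NaCl and sorbitol and 0 with H2O2, and no call of the 8 members with IDs changed.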

Other observations

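Genes that met every condition except that on H numbered 20, and in 19 of these H was above 0. Their median N and S, 1.24 and 1.08, were near those of the members, with a median H of 0.61. By limma all 20 were called higher with NaCl and with sorbitol, where 18.4% and 6.7% of all genes tested were, and 2 were called between H2O2 and control, where 0.111% were. In 11 of them all H2O2 libraries were above all controls, an order that 12.0% of genes tested had. N, S and H chose these genes, so the counts are a description. The 3 treatments share the control libraries, so N, S and H are not independent of each other.

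Genes that met every condition except S of at least 0.8 numbered 208. Their S ran from 0.43 to 0.80 with a median of 0.61, and their median N was 0.88. NaCl was called higher than control in 208 of them and sorbitol in 153, against the same shares of all genes tested. Their median N - S was 0.30. N, S and N - S chose these genes too, and their limits bear on these values.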
